A study of Mus musculus with 10 samples.

Results

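The NADPH oxidase of phagocytes was examined through 7 genes in cultured microglia of the mouse. Microglia are the macrophages that reside in the brain. The genes were Cybb, Cyba, Ncf1, Ncf4, Rac1, Rac2 and Hvcn1, and their rows were found by gene symbol in a deposited table of 28361 probe set rows. A probe set is a group of short probes on an array that together report one transcript. Of the 7 genes, 5 had a row of their own and Hvcn1 had rows that it shared with another gene. Cyba matched no row under this rule and was not analysed here. Where a symbol had several rows, the one with the highest median expression led.

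Total RNA had been hybridised to Affymetrix whole transcript arrays. There were 5 arrays of control microglia, which received no factor, and 5 arrays of microglia given 5 ng/ml recombinant human TGFb1 for 24 h, both without serum. All cells were wild-type, came from P0/P1 C57BL/6 pups and were shaken off mixed glial cultures after 14 days, so both groups share this origin and no adult microglia were measured. Whether each array stands for a culture of its own is not stated in the labels.

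The study asked how TGFb1 changes microglial gene expression. That comparison could not be made for the oxidase genes from values used here. The table has 10 columns of values per array whose names match no sample label, and none was assigned to control or TGFb1. Its columns with the authors' own comparison of the groups were not used either. What remains is one value per probe set, the authors' median expression, a normalised intensity on a linear scale. Its header does not name the arrays it was taken over, so it is a single level with no SD and no replicate check, and it does not separate the groups. Where a gene differs between groups, such a median can lie between both. All differences between genes given below are therefore descriptions without a test.

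The phagocyte oxidase transfers electrons from NADPH in the cell across a membrane to oxygen, which yields superoxide. Its catalytic core is a membrane-bound cytochrome of the Cybb and Cyba proteins. At rest the organising and activating subunits stay in the cytosol, and on stimulation they join the core together with a Rac GTPase. Microglia use this enzyme like other phagocytes, for killing of microbes and for signalling, and sustained activity is known to harm neurons.

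The catalytic subunit Cybb, also known as gp91phox or Nox2, had the highest level of the oxidase genes. Its median expression (probe set 10603551) was 3863, with 36 of 18976 genes higher. This was 245-fold above the level of the median gene, which was 15.8. A gene here is a symbol with a row of its own, represented by its highest row. The 90th percentile of genes lay at a median expression of 209 and the 99th at 1455, and of the 5 oxidase genes with an own row Cybb alone exceeded the latter.

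The start region of Cybb is printed because this gene stood highest. Its window also held matches to patterns searched for transcription factors known from phagocytes. Windows from 250 bases before to 50 bases after an annotated start were taken from RefSeq for GRCm38.p6, and 3 of the 7 genes had one, Cybb, Cyba and Ncf1. The Cybb window lies on the minus strand at chrX:9469275-9469574 and reads 5′ to 3′ as follows, with the motif matches in capitals.
Cybb: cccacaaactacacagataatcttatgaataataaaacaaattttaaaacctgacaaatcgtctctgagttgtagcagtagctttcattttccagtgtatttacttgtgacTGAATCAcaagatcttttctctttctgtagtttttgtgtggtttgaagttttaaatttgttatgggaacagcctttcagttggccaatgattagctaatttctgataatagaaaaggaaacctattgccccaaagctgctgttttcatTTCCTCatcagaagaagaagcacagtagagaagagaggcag
The first match, 139 bases before the start, is to TGANTCA, a loose pattern searched for the AP-1 factors. N stands for any base in this pattern, and it is A in the Cybb match. The other begins at base 10 after the start and is the reverse complement of GAGGAA, the core recognised by PU.1, a factor that macrophages require. Searched on both strands, GAGGAA was found in 28.3% of all 32851 RefSeq windows of the same 300 bases, and TGANTCA in 7.81%. The matches in Cybb do not overlap each other. Neither motif was found in the windows of Cyba and Ncf1, and CAGAC, a short Smad element present in 49.6% of windows, was found in none of the 3. A match shows that the letters are present and not that a factor binds there.

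Among the cytosolic subunits, Ncf1 stood above Ncf4. Ncf1, or p47phox, is the organiser that carries the cytosolic complex to the membrane once it is phosphorylated. Its median expression (probe set 10534202) was 425, higher than that of 95.5% of genes. Ncf4, or p40phox, binds a phosphoinositide of phagosome membranes through its PX domain. Its median expression (probe set 10425053) was 104, higher than that of 81.0% of genes and 6.62-fold above the median gene. Ncf4 was the lowest of these 5 oxidase genes and the only one below the 90th percentile. The level of Cybb was 9.10-fold that of Ncf1 and 37.0-fold that of Ncf4. These ratios compare different probe sets, which can bind their targets with different strength, so they do not give the ratio of transcripts or of subunits.

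The GTPases that complete the active enzyme had similar levels. Rac2, the form restricted to blood cells, had a median expression of 736 (probe set 10430372), and Rac1, the form present in nearly all cells, one of 723 (probe set 10535471). Their ratio was 1.02, which is smaller than the ratio of 1.66 between the rows of Prdx1, another gene of the pathway with several rows. The order of both cannot be told from these values. They exceeded 97.6% and 97.5% of genes. Rac1 and Rac2 are close relatives, and whether their probes also bind the other transcript was not tested. The third Rac gene, Rac3, was at 58.6.

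Hvcn1 encodes the voltage-gated proton channel, which lets out the protons that the oxidase leaves in the cytosol. It was represented by 2 rows, both shared with Tctn1, a gene of the primary cilium that overlaps Hvcn1 on chromosome 5 in the RefSeq annotation of GRCm38.p6. The leading row (probe set 10525365) had a median expression of 252, higher than that of 91.7% of genes. The other (probe set 10533446) had 25.1, higher than that of 57.3%. Neither value can be assigned to Hvcn1 alone, and the place of the gene in the order depends on the row taken. With the first it lay between Ncf1 and Ncf4, and with the second below all other oxidase genes.

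**Figure D1:**
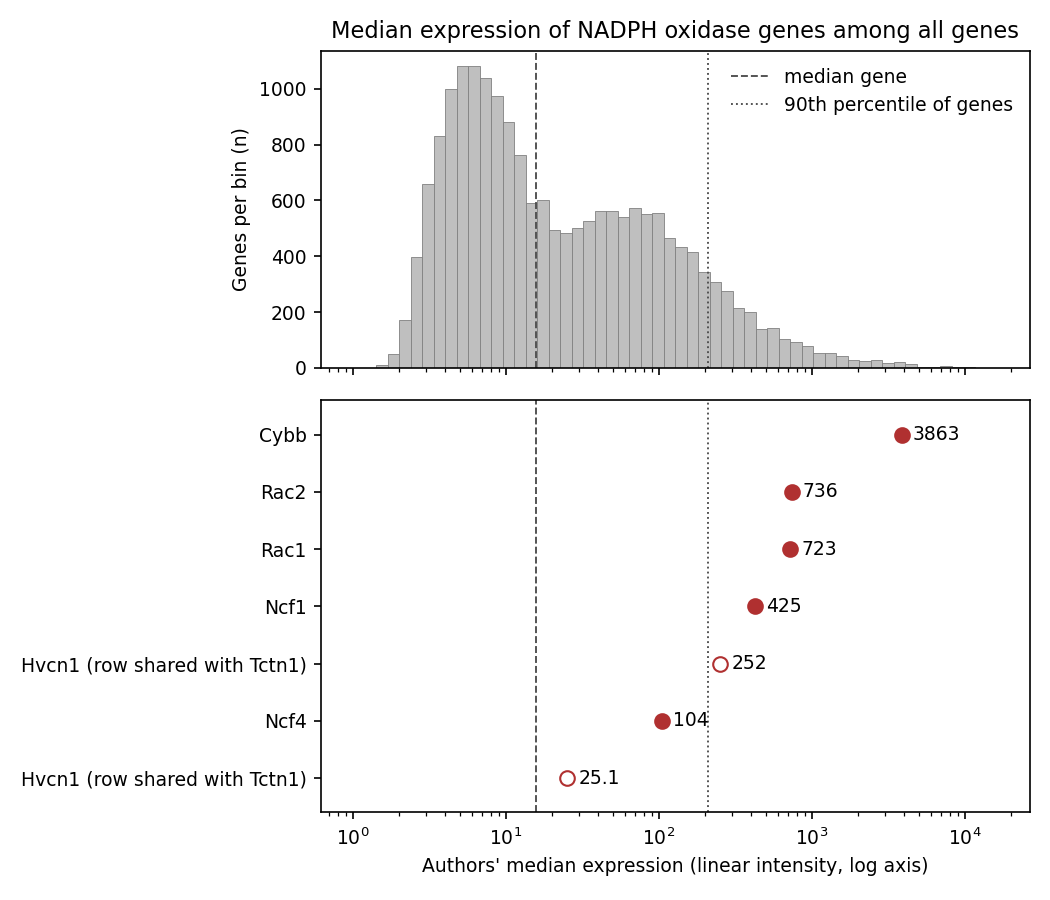
The upper panel shows how many of the 18976 genes fall in each bin of the authors' median expression (linear intensity on a log axis), and the lower panel shows each row of the oxidase genes as a point on the same axis, filled for a row of its own and open for a row shared with Tctn1. Cybb stands far to the right at 3863, Rac2, Rac1 and Ncf1 lie beyond the 90th percentile of genes (dotted line, 209), and Ncf4 at 104 lies between this line and the median gene (dashed line, 15.8).

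The annotation in the table was read for what the oxidase genes share beyond their symbols. Cybb, Ncf1, Ncf4, Rac1 and Rac2 all carry the KEGG identifier 04670, leukocyte transendothelial migration, which 108 genes or 0.569% of all genes carry. The median level of those 108 genes was 47.5. The gene ontology component named NADPH oxidase complex was attached to 6 rows. These were Cybb, Ncf1, the oxidase relatives Nox1, Nox3 and Nox4, and a row without a gene symbol (probe set 10582303) at a median expression of 2848, which was assigned to no gene. Ncf4, Rac1, Rac2 and both rows of Hvcn1 lack that term.

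Other catalytic subunits of the oxidase family were near the low end of the array. Nox1 is known from colon epithelium, Nox3 from the inner ear and Nox4 from kidney and vessels. Their median expression was 4.91, 4.02 and 4.65. The dual oxidases Duox1 and Duox2, which supply peroxide in the thyroid and at epithelia, were at 4.74 and 4.83, and their maturation factor Duoxa2 at 4.29. The highest of these, Nox1, exceeded 17.4% of genes, whereas Cybb exceeded 99.8%. Noxo1, the organiser that stands in for Ncf1 beside Nox1, was at 15.6, close to the median gene. Noxa1 and Duoxa1 had shared rows only, at 6.54 and 9.91.

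Of the 7 genes listed for assembly and stability of the oxidase with an own row, 5 exceeded the 90th percentile of genes. These 5 were GTPase genes and genes of proteins that bind Rac, and none is particular to the oxidase. Arhgdia and Arhgdib, whose proteins hold Rac in the cytosol, were at 1788 and 1319, and the GTPase genes Cdc42, Rap1b and Rap1a at 2680, 734 and 231. Nrros, found under its older symbol Lrrc33, encodes a membrane protein reported to limit oxidase activity by lowering the stability of the catalytic subunit. It was at 69.0, and Cybc1, which supports maturation of the cytochrome, was not analysed here.

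The exchange factors that load Rac with GTP differed widely in level. Dock2, the main such factor of leukocytes, was at 643 and Vav1 at 376. Prex1 followed at 194, Vav3 at 75.3 and Vav2 at 50.4, while Tiam1 at 8.22 lay below the median gene. The blood cell forms Dock2 and Vav1 were thus the highest of the 6 measured on an own row, and Tiam2 had only a row shared with another gene.

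Of 10 kinases and lipases that act on the oxidase, 9 exceeded the median gene and 5 the 90th percentile. Prkcd and Prkcb, protein kinase C forms that phosphorylate Ncf1, were at 453 and 237, whereas Prkca was at 8.94. Pak2, a kinase that Rac activates, was at 649 and Pak1 at 92.6. Pik3cg and Plcg2, enzymes of lipid signalling, were at 342 and 292, Syk at 168 and Pla2g4a, which releases arachidonic acid, at 154. Pik3c3, the kinase that makes the lipid bound by Ncf4, was at 55.1. Among the genes for ion balance during the burst, the potassium channel Kcnn4 was at 154 and the chloride transporter Clcn3 at 32.6.

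Enzymes that supply the substrate NADPH were all above the median gene, and 4 of 8 exceeded the 90th percentile. Pgd and G6pdx, enzymes of the pentose phosphate pathway that reduce NADP, were at 2458 and 1087. Idh1 was at 461, H6pd at 267, Idh2 at 195, Taldo1 at 166, Tkt at 99.1 and Me1 at 68.4. The 2 rows of Me1 had a ratio of 1.08.

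Enzymes that remove superoxide and peroxide ranged widely in level, with a median of 499 over the 7 genes with an own row. Prdx1, a peroxiredoxin, was at 3529 and Cat, catalase, at 3155. The superoxide dismutases of the cytosol and of mitochondria, Sod1 and Sod2, were at 751 and 499, while the secreted form, Sod3, was at 5.44. Gpx1 and Gpx4, glutathione peroxidases, were at 287 and 220, and Prdx5 shared its row with Trmt112. The 90th percentile of genes was exceeded by 6 of these 7 genes, all but Sod3. The rows of Prdx1 differed by a ratio of 1.66.

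Transcription factors known to act on oxidase genes were all above the median gene. Spi1, which encodes PU.1 and was listed under its older symbol Sfpi1, was at 873, and Irf8 at 557. Rela was at 411, Irf1 at 108 and Cebpb at 27.3. Irf1 had a second row at 10.3, a ratio of 10.5 between its rows, so its level is uncertain. Of the 6 factors, 4 exceeded the 90th percentile.

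**Figure D2:**
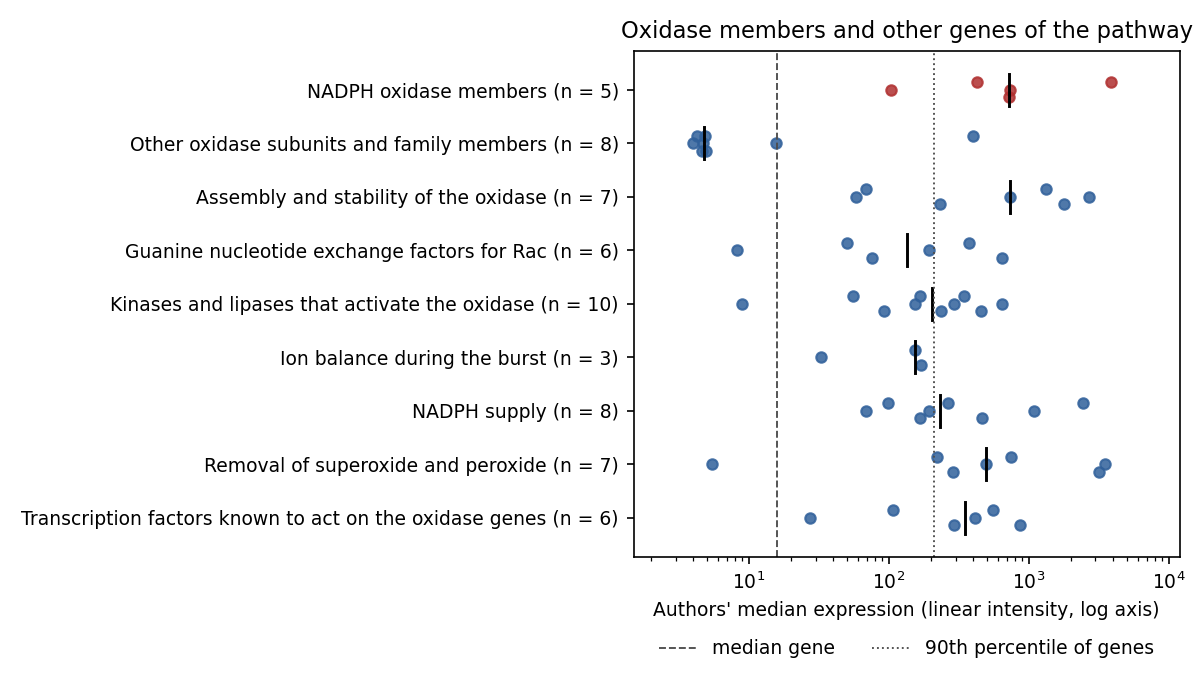
Each point is a gene with a row of its own at the authors' median expression (linear intensity on a log axis), grouped by role, with the number of genes beside each name and a black bar at the median of the group; the oxidase genes are in red. The median was 723 over the 5 oxidase genes and 4.79 over the 8 other subunits and family members.

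The labelled cell type was checked against its markers, since other phagocytes and B cells also express oxidase genes. All 11 microglia and macrophage markers lay above the median gene, among them Cd68 at 4757, Trem2 at 1956, Fcrls at 1136 and Cx3cr1 at 819. Tmem119 and P2ry12, which distinguish microglia from other macrophages, were lower, at 94.1 and 40.4. Neutrophils are rich in this oxidase, and none of their 10 markers exceeded the median gene. These ranged from 2.70 for Ly6g to 13.7 for Mmp8, with S100a8 at 7.53 and Mpo at 11.4. Of 4 B cell markers, Cd79b was at 27.7 and Cd79a and Ms4a1 at 5.75 and 2.68.

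Among 7 border macrophage markers, Ms4a7 was at 2052, Mrc1 at 156, Pf4 at 96.5 and Cbr2 at 20.2, while Lyve1, F13a1 and Cd163 lay below the median gene, at 10.6, 11.2 and 5.84. The monocyte markers Ccr2 and Plac8 were at 3.23 and 3.39. Those of astrocytes, the oligodendrocyte lineage, fibroblasts and vessel cells, and neurons had medians of 6.82, 7.40, 10.6 and 5.66, with Cspg4 at 58.0 and Mbp at 56.7 the highest. In sorted adult microglia lacking the TGFb receptor gene Tgfbr2, the study reported increased expression of Ms4a7, Mrc1 and Pf4. These markers alone therefore do not identify border macrophages. The part of border macrophages in the oxidase levels was not tested. In such bulk samples fewer cells of a type and less RNA per cell cannot be told apart.

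**Figure D3:**
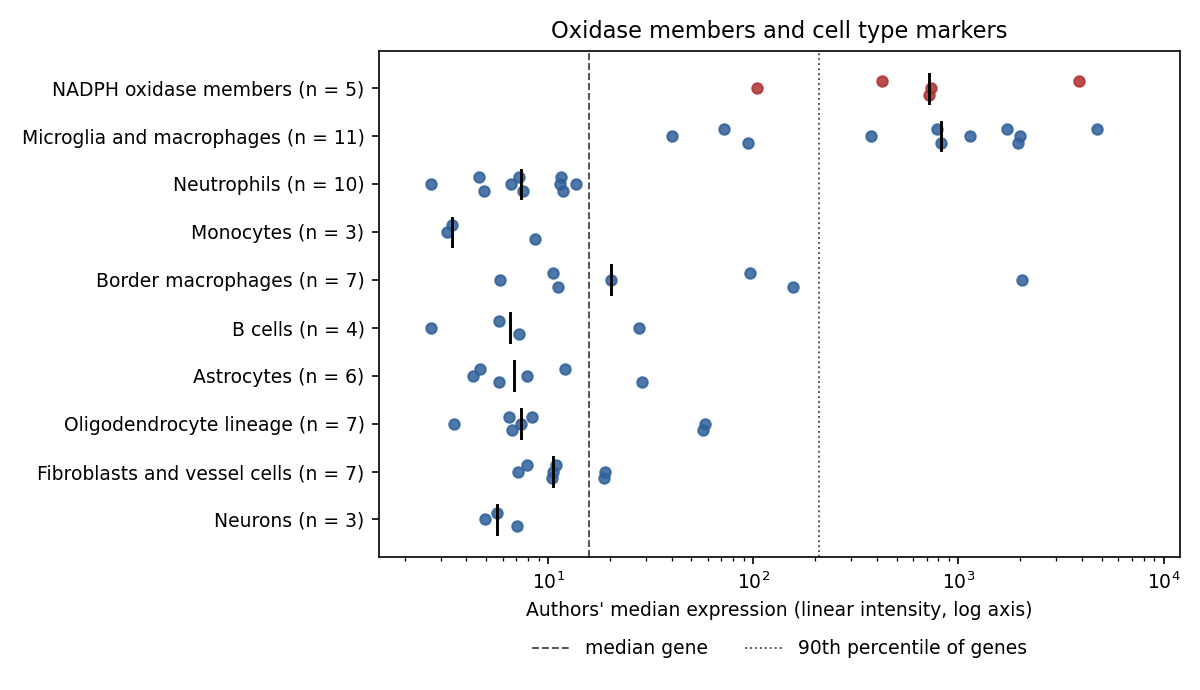
Each point is a gene with a row of its own at the authors' median expression (linear intensity on a log axis), with a black bar at the median of each list and the oxidase genes in red. The median was 819 over the 11 microglia and macrophage markers and 7.38 over the 10 neutrophil markers, none of which reaches the dashed line of the median gene at 15.8.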

How the data were processed

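RNA of 10 arrays was amplified from 500 ng of total RNA (RNA integrity numbers 8.6 to 10, mean 9.45). RMA, named in the processing notes of the submitters per the labels, removes background, scales arrays to one distribution and condenses probes to one value per probe set. Its version and the genome build were not given in the sources used here, and probe set coordinates are left out. The study's methods state an array model for RNA of sorted microglia prepared with another kit, which was not carried over to the arrays of cultured cells. The authors deposited a median expression for each probe set as a linear intensity, and only this column was used. The table also holds 5 columns with the authors' own paired comparison (effects, p-value and FDR of a CyberT test) and 10 columns of values per array with names that match no sample label. Neither was used, so the planned limma fit, its alternatives and the most similar genes could not be computed, and the rule that names genes by FDR was replaced by naming genes of each list by level. Rows naming no gene (5061), several genes (2247) or a date in place of a symbol (12) stayed out of the 18976 genes. The number of arrays limits the precision, which has no estimate here. The members and lists (60 pathway genes, 55 with a row of their own, and 61 markers) were chosen with earlier results of these data known, and 4 genes were matched by an older symbol through RefSeq. Percentages of genes below a level and motif matches were computed in Python 3.11.15 with numpy 2.4.6 and pandas 2.3.3. Both were tested on simulated data, the motif search with GAGGAA and CAGAC but not with TGANTCA. Planned protein comparisons were not made. A few listed genes enter the counts and medians without being named.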

Additional observations from a re-analysis of the deposited data

How the results depend on the processing

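Taking log2 cannot change the order of levels, so the log2 scale says nothing about its stability. Without rows at or below the 25th percentile of median expression, the percentage of genes below each of the 6 oxidase genes lay between 76.3 for Ncf4 and 99.8 for Cybb, and with every row of one symbol between 80.9 and 99.7. The other row of Hvcn1 with Tctn1 moved it from 91.7 to 57.3. In the 150 bases before the start, GAGGAA was found in 0 of 3 oxidase genes, against 1 in the whole window, since the match in Cybb lies after the start. Of all RefSeq windows, 14.5% held GAGGAA in this stretch. TGANTCA stayed at 1 of 3 genes, beside 4.24% of all windows. With 3 genes these counts cannot be set apart from the shares. No paired analysis was possible because the columns used carry no replicate numbers. Alternatives on normalization, variance, threshold, adjustment and single replicates need values per array and were not run. With one pooled median per probe set, neither replicate error nor signal over background could be estimated.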
